A study of Rosa rugosa with 4 samples.

Results

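Transcription factors are described here in petals and leaves of the rose Rosa rugosa, a shrub whose flowers are valued for their scent. The members were the assembled transcripts (contigs) whose first database hit named Fragaria, Rosa, Prunus, Malus or Pyrus, the genera of strawberry, rose, plum, apple and pear, and whose hit text held a word for a transcription factor family. General transcription factor, initiation and elongation hits were left out. The words also caught 12 other proteins, such as target of Myb protein 1 and subunits of the basal machinery, which are counted as members. This rule, which used no measured value, found 328 of 65535 contigs, and 14514 contigs in all had a hit to these 5 genera. The first hit was to Fragaria for 285 members, to Rosa for 21, to Prunus for 13, to Malus for 5 and to Pyrus for 4. RNA of 2 leaf and 2 petal samples, called leaf 1, leaf 2, petal 1 and petal 2, was sequenced after ribosomal RNA removal. Both tissues came from greenhouse plants with no treatment. Nothing says that the samples of a tissue came from separate plants, so the p-values measure spread between these samples only, which may be technical.

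Transcription factors bind short DNA motifs through a family-specific domain and raise or lower transcription of the genes nearby. In flowers of model plants, MADS factors set organ identity, R2R3-MYB and bHLH factors switch on pigment and scent genes, and SPL, TCP and homeobox factors act on growth and phase change. NAC, WRKY, AP2/ERF and heat stress factors are large families that answer stress, pathogens and hormones. Many of the growth regulators are held down by conserved microRNAs.

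Sequences are shown for mature microRNAs of this species whose targets are known in Arabidopsis, because the study of these plants was about small RNAs and because no contig sequences were used here. They come from the study's list of conserved microRNA precursors, found by aligning mature microRNAs to the transcriptome assembled from the 4 RNA libraries. Their levels were not measured in those libraries, and they were chosen after the hits had been seen. Each is written from its 5′ end, with the seed (bases 2 to 8) in capitals.
miR156a1-5p: uGACAGAAgagagugagcuc
MIR172-3p: aGAAUCUUgaugaugcugcau
MIR160c: uGCCUGGCucccuguaugcca
miR167c-5p: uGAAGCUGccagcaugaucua
MIR164f: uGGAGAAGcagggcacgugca
miR166-3p: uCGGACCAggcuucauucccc
MIR169b: uAGCCAAGgaugauuugccug
MIR319g: uUGGACUGaagggagcuccc

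The 8 seeds were all different. The contigs with hits to the matching factor types numbered 26, and 19 of them (73.1%) were listed at 0 FPKM in all 4 libraries. That share was 51.8% over all members and 45.6% over the other hits to the 5 genera. SPL13A, a squamosa promoter-binding factor of the type miR156 acts on, had 11 contigs, all of 1 component (TR113289). Of these 10 were at 0 while the other had 1 fragment, in leaf 1, and they weigh heavily in the 19. An effect of the microRNAs on these levels was not tested. The 3 contigs of NF-YA, the CCAAT-binding subunit that miR169 acts on, were at 0 throughout. So were the single contigs of NAC21/22, the miR164 type, and of REVOLUTA, the homeobox factor that miR166 acts on to set the upper and lower leaf side. ARF6, its like and ARF8, the auxin response factors of miR167, had 4 fragments over 4 contigs, 1 in petal 1 and 3 in petal 2. ARF17, the miR160 type, had 2 fragments, both in petal 2. The AP2 factors of miR172, TOE3 and a RAP2-7-like hit, had 5 fragments over 3 contigs, 3 in leaf 2 and 2 in petal 2. TCP4, the growth regulator that miR319 acts on, had the most, with 2.03, 0, 11.90 and 6.56 FPKM in leaf 1, leaf 2, petal 1 and petal 2 (1, 0, 6 and 4 fragments). TCP4 was thus higher in both petal libraries, on 11 fragments in all.

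Levels are in FPKM, fragments scaled by contig length and by mapped fragments, and the fragments behind each value were recovered from the steps between the values. Mapped depth ranged from 18600000 fragments in petal 1 to 26700000 in leaf 1, and the contigs of the table took 0.798% to 2.94% of it. The table stops at the row limit of its spreadsheet format, so transcription factors beyond it were not analysed here, and member counts, family sizes and contigs at 0 describe this portion only. The share of these fragments on hits to the 5 genera was 77.1% to 79.4% in leaf 1, leaf 2 and petal 1, but 19.7% in petal 2, where grey mould fungi held 27.9%, against at most 0.0762% in the others. Chelicerate hits held 6.16% in petal 2, aphid hits 6.47% in petal 1 and 3.43% in petal 2 (0.281% and 0.367% in leaf), and hits to Marssonina, a leaf spot fungus, 4.02% in leaf 1 and 2.38% in leaf 2. As a check of tissue, NUDX1, the enzyme behind geraniol scent in roses, stood at 0.74 and 0.09 FPKM in the leaf pair against 347.12 and 35.45 FPKM in the petal pair, but it was 1 of 5 petal marker contigs with at least 20 fragments. The other 4 had hits to germacrene D synthase-like, a sesquiterpene enzyme, and 3 of them had negative log2 differences (petal minus leaf) of -1.53, -1.44 and -1.03. Those at -1.44 and -1.03 were above 0 in leaf 2 only, at 6.39 and 3.17 FPKM. The remaining contig was above 0 in petal 2 only, at 2.65 FPKM. The list had a median of -1.03 with 1 contig separated toward petal and 1 toward leaf. The leaf marker list did not check the label either. It had 2 contigs with at least 20 fragments, both for chlorophyll a-b binding proteins. The first, of the light-harvesting complex, stood at 16.31 and 20.33 FPKM in the leaf pair against 79.56 and 30.51 FPKM in the petal pair. The second stood at 18.81 and 25.28 FPKM in leaf against 33.48 and 13.62 FPKM in petal, so the tissues overlapped. Their log2 differences were 1.39 and -0.02, with a median of 0.68. In bulk tissue, fewer cells of a type and less RNA per cell cannot be told apart.

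The transcription factor contigs were short and thinly covered. Their median length was 258 nt (range 175 to 2723), against 270 nt for the other hits to the 5 genera. Of the 328 members, 170 were listed at 0 in all 4 libraries, 71 were above 0 in 1 library only, and 21 were above 0 in all 4. At least 20 fragments over the 4 libraries were found for 20 members, or 6.10%, against 8.04% of the other hits to the 5 genera. These 20 held 83.7% of the 4186 member fragments, and a single contig held 53.4%. A library yielded 785 (leaf 1), 1315 (leaf 2), 804 (petal 1) and 1282 (petal 2) member fragments. Without that contig the sums were 538, 443, 521 and 449 fragments, which is 20.1, 21.8, 28.0 and 19.03 per 1000000 mapped fragments (fpm). Contigs may also be parts of 1 gene, since the 328 members fell in 260 assembly components and had 219 different hits. Family names rest on the hit alone, and the match was weaker than an E value of 1e-20 for 6 of the 20 and 146 of the 328. The 6 were TR10424, WRKY31, WRKY19, bHLH144-like, NF-YC-1 and a subunit of RNA polymerase II transcription factor B, all described below.

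No transcription factor passed the test between tissues. Among contigs with at least 20 fragments, limma with Benjamini-Hochberg adjustment over all 5211 called 0 of the 20 members, with adjusted p from 0.469 to 0.981, and the background was 0 of 5211, or 0%. At an unadjusted p under 0.05 it passed 0 of the 20 members against 307 of 5211 (5.89%), and limma-voom on the fragments also called 0. The study compared the tissues with edgeR and described, for its clustering, a filter by which the mean and the SD had to reach 10 FPKM. With this filter of the study 8 members were tested, and limma called 0, with a lowest adjusted p of 0.515. There the background was 24 of 2157, or 1.11%, and unadjusted p under 0.05 was reached by 0 of the 8 members and by 102 contigs (4.73%). Of those 8 members 7 had under 20 fragments, down to 3, because 1 fragment on a short contig is worth many FPKM. On simulated data the study's filter left 20 contigs changed 16-fold and the test called 0% of them, while with at least 20 fragments it recovered 93% of 16-fold changes and 14.4% of 4-fold changes. None of these shares carries over to the 4 libraries. There the fit with the study's filter called 24 of 2157 contigs, unlike the 0% on simulated data. The fit with at least 20 fragments called none of the 5211, NUDX1 with a log2 difference of 6.35 included. An exact permutation test of a single contig cannot go below p = 0.3333 with 2 libraries against 2.

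The levels of 4 of the 20 members were higher in both petal libraries than in either leaf library, and 5 were higher in both leaf libraries. That is 20% and 25%, against a background of 16.9% and 13.3% over all 5211 contigs and of 27.2% and 22.6% over the 1160 with hits to the 5 genera. With petal 2 left out, which makes separation easier, the counts were 6 and 6. When every library was scaled to the same FPKM sum, only 2 were higher in both petal libraries. No background share was computed for these alternatives. The median log2 difference, petal minus leaf on log2(FPKM + 1), was -0.06 over the 20 members, 0.10 over the 5-genera hits and 0.80 over all contigs with at least 20 fragments. The last value rested on petal 2, since it was 0 without that library and 1.42 without petal 1. The members' median was 0.23 without leaf 2. The 4 separated toward petal were MYB108, myb7, WRKY31 and ATHB-20-like, and the 5 separated toward leaf were SPATULA-like, HAT3.1, a heat stress factor, WRKY65 and a subunit of RNA polymerase II transcription factor B. The lower petal library of MYB108 held 1 fragment. That of myb7 stood at 0.23 against 0.22 FPKM in the higher leaf library, and that of ATHB-20-like at 0.64 against 0.63 FPKM. MYB108 was at 0 in leaf and WRKY65 at 0 in petal. All 4 separated toward petal had under 20 fragments in leaf. Of the 5 separated toward leaf, HAT3.1, the heat stress factor and WRKY65 had under 20 in petal. These members reached 20 fragments only with the tissue where they were high, so the counts of separated members support nothing by themselves. SPATULA-like and the polymerase factor subunit had at least 20 in each tissue.

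**Figure D1:**
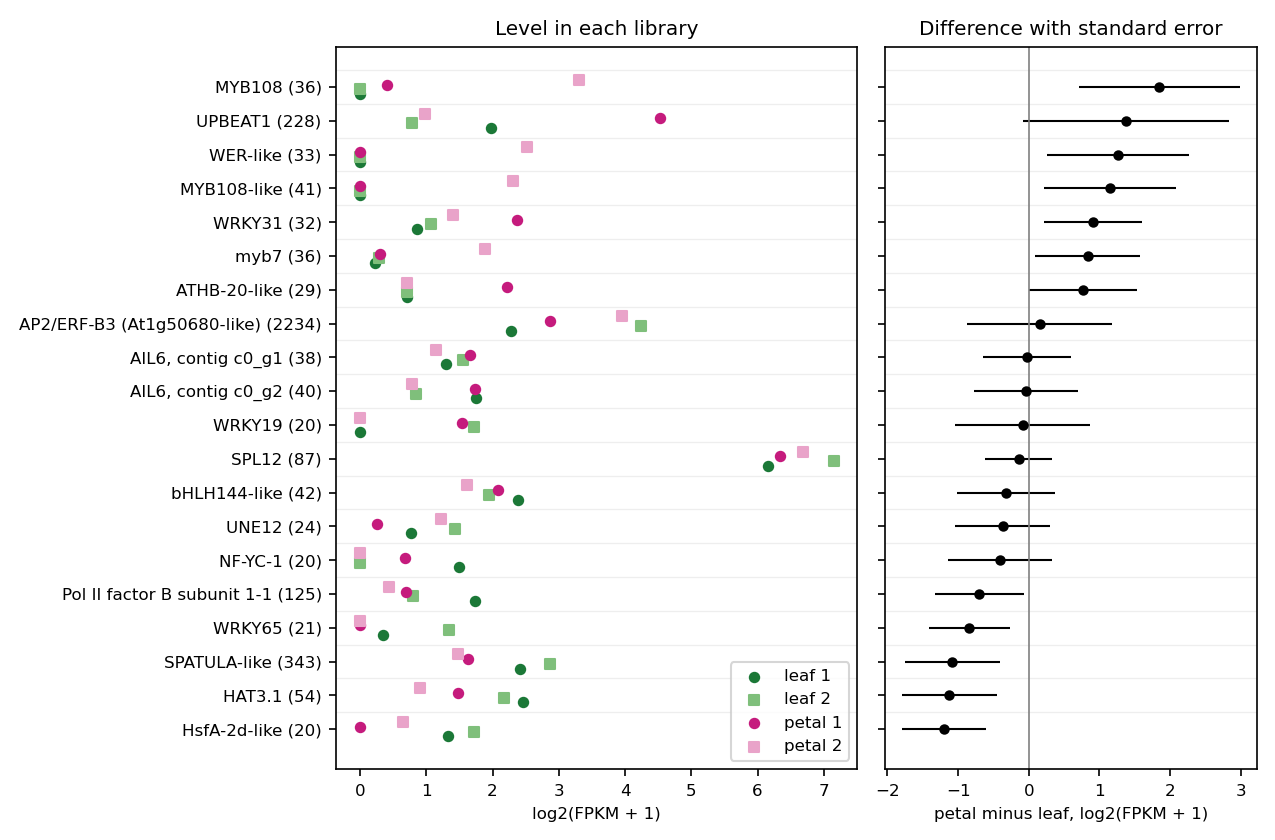
Level (left, log2 of FPKM + 1, 1 marker per library) and petal minus leaf difference with its standard error from limma (right) of the 20 transcription factor contigs with at least 20 fragments, whose number follows each name. MYB108 had the highest difference (1.85) and the HsfA-2d-like contig the lowest (-1.20), and no difference passed the test.

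In the basic helix-loop-helix family (bHLH, 50 members, 23 above 0) 4 contigs had at least 20 fragments. SPATULA-like (TR17126), a factor that in Arabidopsis forms the carpel margin and also restrains leaf and cotyledon growth, stood at 4.34 and 6.26 FPKM in leaf 1 and leaf 2 and at 2.09 and 1.80 FPKM in petal 1 and petal 2. It rested on 122, 133, 42 and 46 fragments, and both leaf values lay above both petal values. The mean was 5.30 ± 1.36 FPKM in leaf and 1.95 ± 0.21 FPKM in petal (SD, n = 2), 2.72-fold higher in leaf. On the log2(FPKM + 1) scale the difference was -1.08 (SE 0.68), with an adjusted p of 0.469 by limma. The 2 other contigs with a SPATULA-like hit were at 0.

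UPBEAT1 (TR105133), which in Arabidopsis roots sets the balance of reactive oxygen by repressing peroxidase genes, stood at 2.92 and 0.73 FPKM in the leaf pair against 22.16 and 0.97 FPKM in the petal pair. Only petal 1 was high, with 180 of the 228 fragments, and petal 2 lay between the leaf libraries. The log2 difference was 1.38 with an SE of 1.46 (limma adjusted p = 0.491), and without petal 1 it was -0.40. Of the 5-genera hits with at least 20 fragments, 70 of 1160 (6.03%) held at least 70% of their fragments in petal 1, and UPBEAT1 was the 1 member that did. Petal 1 was also the library with the highest aphid share (6.47%), and the part of this in the levels that were high in petal 1 alone was not tested. The bHLH sum was 7.79, 8.37, 13.5 and 3.64 fpm in leaf 1, leaf 2, petal 1 and petal 2, and without UPBEAT1 it was 6.60, 8.09, 3.81 and 3.21. Both petal libraries were then below both leaf libraries, and SPATULA-like gave most of that sum.

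The other bHLH contigs were low. The bHLH144-like contig (TR18192) stood at 4.24, 2.85, 3.22 and 2.05 FPKM, and UNE12 (TR101509), named for an Arabidopsis mutant unfertilised in the embryo sac, at 0.71, 1.71, 0.19 and 1.33 FPKM in the same order of libraries. The tissues overlapped for both. A contig for bHLH79 (TR16340) was listed at 0 in both leaf libraries and at 3.06 and 2.95 FPKM in the petal libraries, on 5 and 6 fragments. Contigs under 20 fragments were named by rule where they had at least 10 fragments and 0 in a tissue. Their one-sided counts follow from that choice, and no fold is given for them. Other contigs under 20 fragments, TCP4, HY5 and NAC2-like among them, were named after their values were seen.

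The MYB family (42 members, 23 above 0) stood apart in petal 2. The family sum was 18, 27, 19 and 153 fragments in leaf 1, leaf 2, petal 1 and petal 2, so petal 2 held 70.5%, against 22.1% for all hits to the 5 genera. The 4 MYB contigs with at least 20 fragments gave 139 of the 153. Without them the other 38 members had 16, 25, 16 and 14 fragments.

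MYB108-like (TR10384, 731 nt) was listed at 0 in both leaf libraries and in petal 1 and stood at 3.94 FPKM in petal 2, on 41 fragments. MYB108 (TR118571, 458 nt), whose hit was to a Prunus gene, was at 0 in leaf, at 0.32 FPKM in petal 1 on 1 fragment and at 8.85 FPKM in petal 2 on 35. MYB108 is known in Arabidopsis for stamen maturation under jasmonate, and its other name, BOS1, comes from a mutant with altered susceptibility to the grey mould Botrytis. The WER-like contig (TR1261, 585 nt), like WEREWOLF of the Arabidopsis epidermis, had all its 33 fragments in petal 2 (4.75 FPKM). The contig for myb7 (TR13047, 760 nt), a putative MYB gene of Rosa rugosa, was above 0 in every library, at 0.17, 0.22, 0.23 and 2.70 FPKM, and 30 of its 36 fragments were in petal 2. For all 4 contigs leaf 1, leaf 2 and petal 1 stood between 0 and 0.32 FPKM, and petal 2 alone was high.

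The petal means were at least 12.8-fold (MYB108-like), 10.2-fold (MYB108) and 9.97-fold (WER-like) higher than the FPKM that 3 fragments over both leaf libraries would give, but each mean rested on petal 2. The log2 differences were 1.85 (SE 1.14) for MYB108, 1.26 (SE 1.005) for WER-like, 1.15 (SE 0.93) for MYB108-like and 0.84 (SE 0.74) for myb7, each with an adjusted p of 0.469 by limma. Without petal 2 they fell to 0.40, 0, 0 and 0.04, and quantile normalization turned that of myb7 to -0.46. At least 80% of the fragments were in petal 2 for these 4 of the 20 members, against 84 of 1160 (7.24%) of the 5-genera hits and 2763 of 5211 (53%) of all contigs at that depth. This grouping was made after the values were seen, and a contig at 0 elsewhere can reach 20 fragments only through the library where it is high, so the share supports nothing by itself. Petal 2 was also the library with 27.9% of its fragments on grey mould hits, and the part of this in the MYB levels was not tested.

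**Figure D2:**
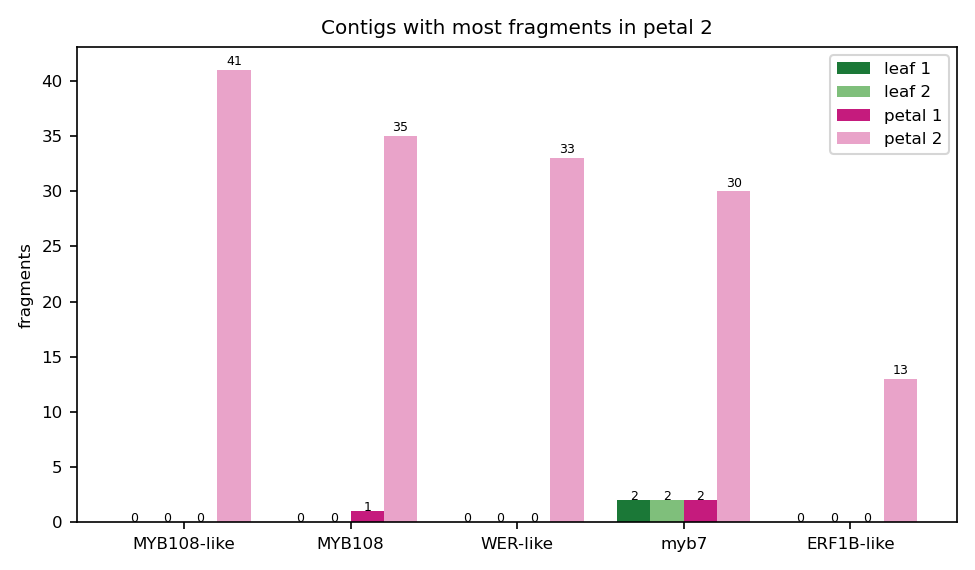
Fragments of 4 MYB contigs and an ERF1B-like contig in each of the 4 libraries (bars start at 0 and carry their count; mapped depth was 18600000 to 26700000 fragments per library). Petal 2 held 41, 35, 33, 30 and 13 fragments, and no other library held more than 2.

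In the AP2/ERF family (28 members, 13 above 0) the contig with most fragments of all members was TR10424 (2723 nt). Its hit was an AP2/ERF and B3 domain factor like Arabidopsis At1g50680, a type that carries 2 DNA-binding domains, but the match was weak for its length (E value 2e-14). It stood at 3.83 and 17.87 FPKM in the leaf pair against 6.27 and 14.49 FPKM in the petal pair, on 247, 871, 284 and 832 fragments. Both libraries numbered 2 were therefore more than 2-fold above both numbered 1, whichever the tissue. Of the 5-genera hits with at least 20 fragments, 136 of 1160 (11.7%) were over 2-fold higher in replicate 2 than in replicate 1 in both tissues. The petal minus leaf difference was 0.15 (SE 1.03, limma adjusted p = 0.923), and it turned to -0.41 with an equal sum per library, to -0.02 with an equal share on the 5 genera and to -0.38 with quantile normalization.

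AIL6, an AINTEGUMENTA-like factor that in Arabidopsis promotes growth of floral organs, had 2 contigs of 1 component (TR128625), which may be parts of 1 gene. The first (c0_g1) stood at 1.47, 1.93, 2.15 and 1.22 FPKM and the second (c0_g2) at 2.38, 0.80, 2.34 and 0.73 FPKM. Petal over leaf, the ratio of the means was 0.991 and 0.965, so the tissues did not separate in either contig, and in the second the libraries numbered 1 were the high ones. AIL5, of the same group, had a contig (TR114552) at 0.86 and 0.65 FPKM in leaf, on 7 and 4 fragments, and at 0 in petal. The ethylene-responsive factor 1B-like contig (TR114951), of a group that acts in ethylene and jasmonate defence in Arabidopsis, had 13 fragments, all in petal 2 (1.09 FPKM), as in the MYB contigs above. The family sum without TR10424 was 1.43, 1.13, 1.99 and 1.399 fpm.

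**Figure D3:**
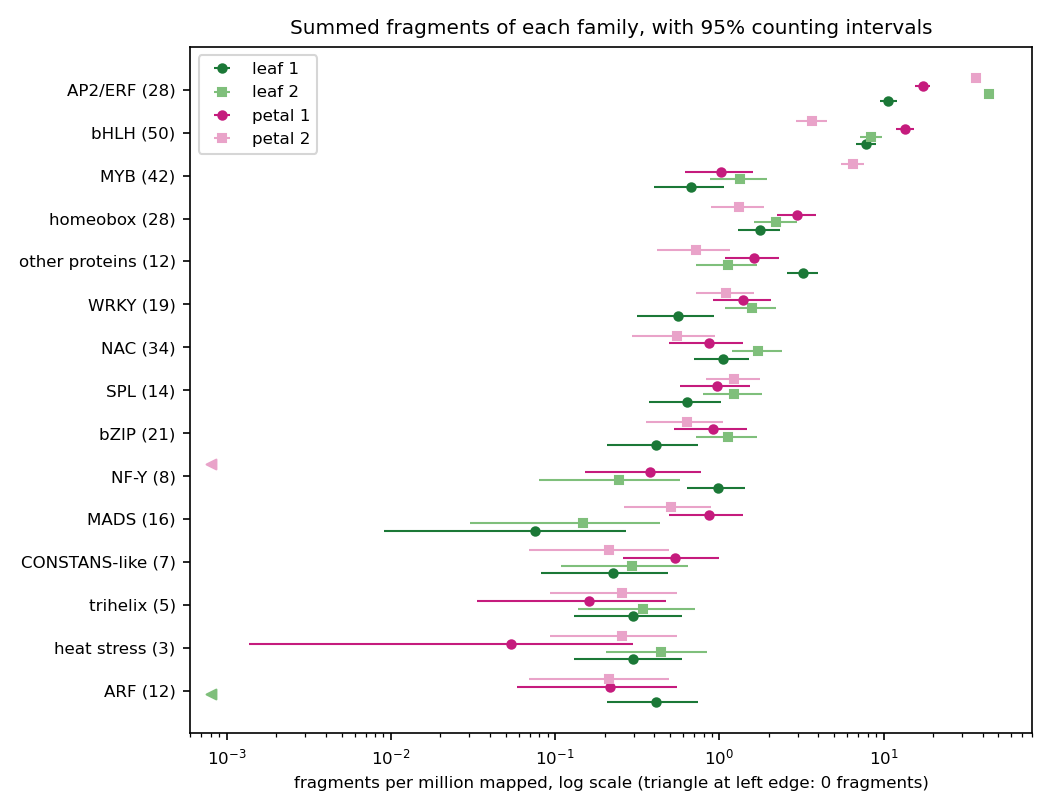
Summed fpm (fragments per 1000000 mapped fragments) of each transcription factor family with at least 20 fragments, with the number of contigs after the name (log axis; bars are 95% exact Poisson intervals, which cover counting error only; a triangle at the left edge is a sum of 0). AP2/ERF was split by replicate number, MYB was high in petal 2 only (6.48), and MADS was higher in both petal libraries (0.86 and 0.51) than in both leaf libraries (0.07 and 0.15), through 1 component.

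MADS factors, whose B and E class members specify petals, had a family sum that was higher in both petal libraries through 1 component, TR12616. The 16 members had 2, 3, 16 and 12 fragments in leaf 1, leaf 2, petal 1 and petal 2, and none reached 20. A contig like AGL9 (TR12616, variant i2), the E class factor also known as SEPALLATA3, was at 0 in both leaf libraries and at 9.83 and 5.01 FPKM in the petal libraries, on 8 and 5 fragments. The hit of variant i2 was weak (E value 1e-13). Variant i1 of that component, whose hit was a rose SEP3 homolog, was also at 0 in leaf and stood at 10.15 and 2.78 FPKM in petal, on 6 and 2 fragments. Fragments of the 2 variants could be split either way between them. Without this component the other 14 MADS members had 2, 3, 2 and 5 fragments, which did not separate the tissues.

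The other MADS contigs above 0 were seen in 1 to 6 fragments each and were chosen after their values were seen. MASAKO BP and MASAKO euB3, B class genes described from Rosa rugosa, had 1 fragment each, in petal 2 and petal 1. AGL15 had 6 fragments, in leaf 1, petal 1 and petal 2, JOINTLESS-like 1 fragment in leaf 1, and AGL80 3 fragments in leaf 2. The AGL80 contig (214 nt) was listed at 75.21 FPKM in leaf 2 from these 3 fragments. It passed the filter of the study (limma adjusted p = 0.515), as did a contig of the Rosa rugosa gene myb12 with the same length and values.

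**Figure D4:**
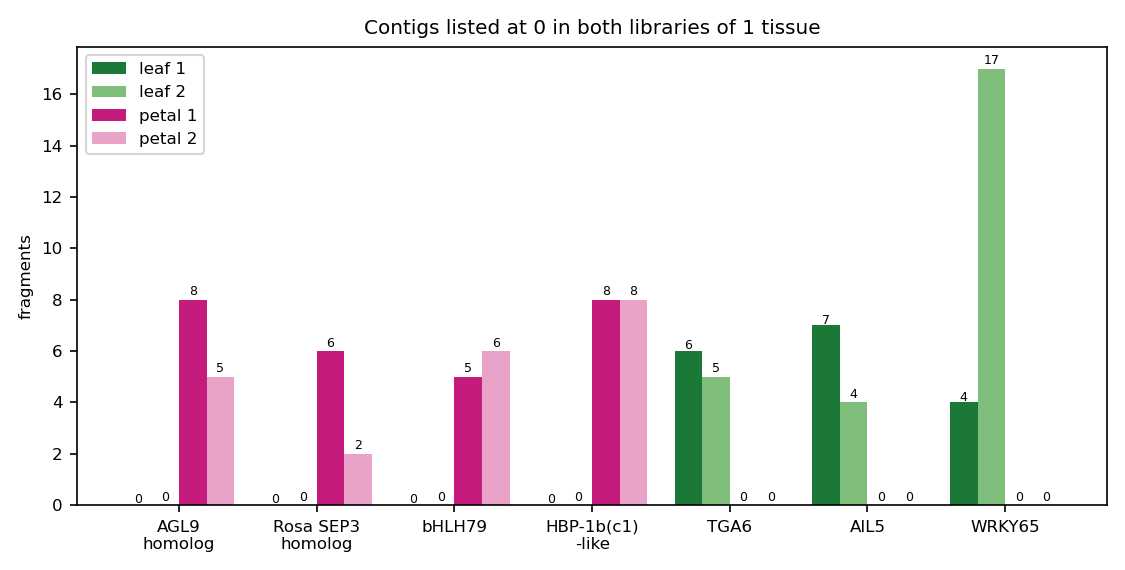
Fragments in each library of 7 contigs listed at 0 in both libraries of 1 tissue (bars start at 0 and carry their count). The AGL9 and SEP3 homologs, bHLH79 and HBP-1b(c1)-like had 2 to 8 fragments in each petal library and 0 in leaf, and TGA6, AIL5 and WRKY65 had 4 to 17 in each leaf library and 0 in petal.

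Among homeobox factors (28 members, 19 above 0) HAT3.1 and ATHB-20-like had opposite orders. HAT3.1 (TR121036), a homeodomain protein with a PHD finger, stood at 4.52 and 3.49 FPKM in the leaf pair against 1.78 and 0.88 FPKM in the petal pair, on 26, 15, 8 and 5 fragments. Its leaf mean was 4.01 ± 0.73 FPKM and its petal mean 1.33 ± 0.64 FPKM (SD, n = 2), a 3.01-fold higher leaf level (log2 difference -1.12, SE 0.67, limma adjusted p = 0.469). Over its 3 contigs HAT3.1 had 27, 18, 8 and 5 fragments. ATHB-20-like (TR141577), a leucine-zipper homeobox protein, stood at 0.63 FPKM in both leaf libraries, 3.66 in petal 1 and 0.64 in petal 2. Only petal 1 was set apart, since petal 2 exceeded leaf by 0.01 FPKM, and quantile normalization turned the log2 difference of 0.76 (SE 0.76) to -0.07. Its 3 contigs together had 5, 3, 31 and 6 fragments.

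Of the 19 WRKY members, named for a family that binds the W-box of defence genes, 3 had at least 20 fragments and each had another pattern. WRKY31 (TR119287) stood at 0.82 and 1.11 FPKM in the leaf pair against 4.14 and 1.64 FPKM in the petal pair, a log2 difference of 0.91 (SE 0.69, limma adjusted p = 0.469) that quantile normalization turned to -0.08. Its hit was weak (E value 3e-06). WRKY65 (TR115490) stood at 0.27 and 1.53 FPKM in leaf, on 4 and 17 fragments, and at 0 in petal, with a log2 difference of -0.84 (SE 0.57). WRKY19 (TR118306), whose hit was weak as well (E value 2e-10), stood at 2.30 FPKM in leaf 2 and 1.92 in petal 1 and at 0 in the other 2 libraries.

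The heat stress factor A-2d-like contig (TR19349), of the class that switches on chaperone genes, stood at 1.52 and 2.30 FPKM in the leaf pair against 0 and 0.57 FPKM in the petal pair, on 8, 9, 0 and 3 fragments. With a log2 difference of -1.20 (SE 0.59) it had the lowest unadjusted p of the 20, 0.111 by limma. The subunit of RNA polymerase II transcription factor B (TR114084, 1594 nt), a part of the basal machinery that the words of the rule let in, stood at 2.34, 0.74, 0.62 and 0.36 FPKM. Leaf 1 alone was far above the rest, with 80 of 125 fragments. NF-YC-1 (TR118869), a subunit of the CCAAT-binding factor, was found in the libraries numbered 1 only, at 1.81 FPKM in leaf 1 and 0.60 in petal 1.

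SPL12 (TR13691), an SBP-box factor, had the highest level of the 20 members per length, at 70.48 and 140.67 FPKM in the leaf pair against 80.22 and 101.63 FPKM in the petal pair. The contig is 262 nt long and these values rest on 16, 25, 18 and 28 fragments. Both petal values lay within the leaf range, and the log2 difference was -0.14 (SE 0.48, limma adjusted p = 0.841), which limma-voom turned to 0.36. By the filter of the study its SE was 0.62 (limma adjusted p = 0.842).

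In the bZIP family (21 members, 8 above 0) no contig reached 20 fragments. TGA6 (TR103277), a partner of the salicylic acid receptor NPR1 in Arabidopsis, stood at 1.54 and 1.72 FPKM in leaf, on 6 and 5 fragments, and at 0 in petal. HBP-1b(c1)-like (TR125950), of the same TGA type, was the reverse, at 0 in leaf, with 0.92 and 0.73 FPKM in the petal libraries, on 8 fragments each. HY5, the bZIP factor that carries light signals to photosynthesis and flavonoid genes, had 12 contigs with 9 of them at 0. They held 5, 12, 7 and 7 fragments in all. One of them (TR111550, 10 fragments) stood at 14 and 22.60 FPKM in the leaf pair against 3.44 and 0 FPKM in the petal pair, yet another (TR19755, c0_g5, 18 fragments) stood at 0.25, 1.36, 1.86 and 1.72 FPKM. The contigs of HY5 thus did not share an order of tissues.

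The NAC family (34 members, 18 above 0) had no contig with 20 fragments, and its sum was 1.05, 1.72, 0.86 and 0.55 fpm in leaf 1, leaf 2, petal 1 and petal 2. The nearest to that minimum was NAC2-like (TR102009) with 19 fragments, at 0.73, 0.72, 0.49 and 0.10 FPKM. CONSTANS-LIKE 1, of the zinc finger family named for the day-length switch of flowering, had 2 contigs with 5, 6, 9 and 5 fragments. The auxin response factors (12 members) had 20 fragments in all, of which ARF1 had 11, in leaf 1 and petal 1. Among the remaining families were GATA (9 members, 13 fragments), TCP (5 and 13), trihelix (5 and 24), GTE (7 and 4), E2F (3 and 2) and the remaining types (5 and 10). No contig of these families had 20 fragments, so none was tested at that minimum.

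Other regulators, put on lists beside the transcription factors, were as thin. Of 7 Aux/IAA, 7 JAZ/TIFY, 8 TOPLESS and 1 DELLA contigs, which hold transcription factors in check, none had 20 fragments. Of 17 contigs of light receptors and light signalling, 1 did, phytochrome C, which was listed at 0 in leaf and reached 4.63 and 0.33 FPKM in petal. Of 74 contigs of other transcription regulators 6 had at least 20 fragments, and 4 of them separated toward petal while 0 separated toward leaf (background 16.9% and 13.3% over all contigs, 27.2% and 22.6% over 5-genera hits). The median log2 difference of the 6 was 1.06, beside 0.80 over all contigs and 0.10 over the 5-genera hits. The 4 were B3 domain (2), LOB domain and zinc finger proteins, and the other 2, both BEL1-like homeodomain protein 1, overlapped between tissues, with log2 differences of 1.15 and -0.014. The highest of the 4 was a B3 domain protein like At2g16210 at 0 in leaf and 19.78 and 6.26 FPKM in petal. This contig and those of the LOB domain and zinc finger proteins stood between 0 and 0.09 FPKM in leaf. Like phytochrome C, they reached 20 fragments only through petal, the tissue where they were high. The count and the median of this list therefore support nothing by themselves.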

How the data were processed

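The authors sequenced RNA from 4 libraries, 2 per tissue, with reads assembled together with Trinity, annotated against NCBI databases and quantified per contig with RSEM and bowtie. The deposited values are FPKM with 2 decimals, and the table held 65535 contigs, a portion of the assembly that stops at a spreadsheet row limit. Contig length, hit and E value come from its annotation column. Contig sequences were not used here, nor was the RefSeq gene table, whose names could not be matched. Members were found by words in the first hit. The members and lists were chosen with earlier results of these data known, and the words that set families were corrected after the hits were seen.

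Fragments per value were recovered from the FPKM steps, and 98.7% to 98.8% of the low values checked were within 0.1 of a whole number. Intervals and floors (3 fragments over the libraries of a tissue) cover counting error only. Tissues were compared with limma (3.58.1, R 4.3.3) with a trend on log2(FPKM + 1), which understates changes of low contigs, over contigs with at least 20 fragments and over those whose mean and SD reached 10 FPKM. P-values were two-sided, adjusted by Benjamini-Hochberg over all contigs tested, with 0.05 as the threshold. On simulated data the second fit called 0 of 10 contigs changed 4-fold and 0 of 20 changed 16-fold, and the first called 9 unchanged contigs of 5255 tested. These counts do not carry over to the 4 libraries, where the calls differed. Named were members with at least 20 fragments that were called, were among the 3 highest of their family or had non-overlapping tissues and a log2 difference of at least 1, and members with at least 10 fragments and 0 in a tissue. The others named were chosen after their values were seen. The alternatives were other pseudocounts, scalings, filters and priors, a replicate block, limma-voom with the recovered mapped depth as library size, and leaving out each library.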

Additional observations from a re-analysis of the deposited data

How the results depend on the processing

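The number of contigs called moved with the processing, but no member was called under any alternative that kept all 4 libraries. With the filter of the study, 24 contigs were called, and 10 with equal FPKM sums, 15 with quantile normalization, 3 without a filter, 9 with a mean of at least 1 FPKM, 1 with at least 50 fragments, 0 without a trend, 51 with the replicate block, 116 with limma-voom, and 305 to 810 without 1 library. With at least 20 fragments 0 were called, and 5 with quantile normalization, 3 without a filter, 9 with a mean of at least 1 FPKM, 1 with at least 50 fragments, 140 with the replicate block, and 0 to 3123 without 1 library. The replicate numbers were not shown to pair the samples (2 pairs; correlation of same-numbered deviations 0.32 over contigs with at least 20 fragments, 0.50 over the 1160 hits to the 5 genera among them and 0.27 over the members). Leaving out a library called members at low counts: 4 without leaf 1 by the filter of the study, and with at least 20 fragments 5 without petal 1 and 2 without petal 2, where the pair left had equal or nearly equal values.

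Members higher in both petal libraries numbered 4, and 2 with equal FPKM sums and 0 of 6 with at least 50 fragments. Those higher in both leaf libraries numbered 5, and 3 with at least 50 fragments and 6 to 9 without 1 library. The share over all contigs was not computed under these alternatives, so the changed counts have no background beside them. The median log2 difference of the members was -0.06, and -0.38 with equal FPKM sums and -0.42 with at least 50 fragments. That of all contigs was 0.80, 0.55 with equal FPKM sums, 0.29 with quantile normalization, 0 without petal 2 and 1.42 without petal 1.

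Of 301 values of the 20 members 22 turned their sign, for 11 members, none of them called, and the cause was not tested. The AP2/ERF-B3 contig (main 0.15) turned to -0.41 with equal FPKM sums, -0.016 with equal shares of the 5 genera and -0.38 with quantile normalization. Quantile normalization gave -0.080 for WRKY31, -0.46 for myb7 and -0.065 for ATHB-20-like. Limma-voom gave 0.43 for WRKY19, 0.048 for AIL6 (c0_g1) and 0.36 for SPL12. Without 1 library the log2 difference ranged from -0.86 to 0.11 for UNE12, from -0.83 to 1.14 for the AP2/ERF-B3 contig, from -0.40 to 3.15 for UPBEAT1, from -0.95 to 0.77 for WRKY19, from -1.15 to 0.34 for NF-YC-1, from -0.28 to 0.23 and from -0.51 to 0.44 for the AIL6 contigs, and from -0.63 to 0.35 for SPL12. The sign did not change for the other 9 members, among them SPATULA-like, HAT3.1, WRKY65, the heat stress factor and MYB108, although MYB108-like and WER-like were at 0 without petal 2. Depth limits what can be said of single members, since 114 of the 158 members above 0 had under 10 fragments.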
